A study of Mus musculus with 4 samples.

Results

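The regions described here are places at the ends of mouse genes where an S9.6 signal was called in P19 cells given the Ube2t hairpin shUbe2t #2, and in no other library of the series. They number 433 of the 2773 merged regions called with S9.6, which is 15.6% of them. The members were selected on the calls themselves: a region had to hold an interval of the shUbe2t #2 list, none of shCtrl, none of shUbe2t #1 and none of the library made without antibody, and to lie on chromosomes 1 to 19, X or Y with the start or the far end of an annotated gene at most 1000 bp away. Of the 687 regions called with shUbe2t #2 alone, 680 were on these chromosomes, 672 were also free of no-antibody intervals, and 239 of the 672 had no gene end in reach. That leaves the 433.

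P19 is a mouse embryonal carcinoma line, and UBE2T is an E2 enzyme that passes ubiquitin on in Fanconi anaemia repair, and the series asks about its part in resolving R-loops. CUT&Tag, in which an antibody brings a transposase to the chromatin it binds, was run in 4 bulk libraries of 1 per condition. These were wild-type P19 cells given a control adenovirus and profiled with S9.6 (shCtrl), cells given the shUbe2t #1 adenovirus with S9.6, cells given the shUbe2t #2 adenovirus with S9.6, and control-adenovirus cells profiled with no primary antibody. All cells therefore carried a knockdown or control adenovirus, and no source used here gives the time after infection, the hairpin sequences or the share of infected cells. As no condition had a second library, nothing checks the spread between replicates, conditions were not tested against each other, and a difference between lists is a difference between these libraries.

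S9.6 binds RNA:DNA hybrids. An R-loop forms when a transcript pairs with its template strand and leaves the other DNA strand single. Such structures are known from the promoters and the 3′ ends of active genes, often where CpG islands have more G than C on the displaced strand, and enzymes such as RNase H, helicases and the Fanconi anaemia pathway remove them. No library with hybrids removed was analysed here, so S9.6 intervals are called intervals and were not shown to be R-loops.

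Of 355 members within 1000 bp of a gene start, 231 (65.1%) had their summit inside a listed promoter. The sequences below are examples, picked for overlap with their region. From the strongest member downwards, the first 5 genes whose listed promoter overlaps their region are Pa2g4, Pnpla8, Ddx59, Dgkq and Ap3d1. Kdm3a, Oasl1 and Atp6v0a1 had higher folds but no such overlap. Their sequences run from 250 bases before the listed start to 50 after it, 5′ to 3′ on the gene's own strand (RefSeq, GRCm38.p6). Capitals mark matches on either strand to the GC box GGGCGG, the CCAAT box CCAAT, the ETS site CCGGAAG and the YY1 site AAGATGGC, none of which contains another of them.
Pa2g4: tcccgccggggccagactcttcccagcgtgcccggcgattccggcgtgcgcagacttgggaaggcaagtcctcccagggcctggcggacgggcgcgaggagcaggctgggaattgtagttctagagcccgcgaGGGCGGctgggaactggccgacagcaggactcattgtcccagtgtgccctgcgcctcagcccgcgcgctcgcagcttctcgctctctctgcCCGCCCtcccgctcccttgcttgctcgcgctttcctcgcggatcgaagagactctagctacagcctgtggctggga
Pnpla8: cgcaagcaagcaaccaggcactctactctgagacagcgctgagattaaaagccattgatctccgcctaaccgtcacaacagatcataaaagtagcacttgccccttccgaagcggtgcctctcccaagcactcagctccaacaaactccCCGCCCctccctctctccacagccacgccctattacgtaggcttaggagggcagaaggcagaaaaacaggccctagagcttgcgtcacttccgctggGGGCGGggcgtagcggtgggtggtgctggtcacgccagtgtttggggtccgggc
Ddx59: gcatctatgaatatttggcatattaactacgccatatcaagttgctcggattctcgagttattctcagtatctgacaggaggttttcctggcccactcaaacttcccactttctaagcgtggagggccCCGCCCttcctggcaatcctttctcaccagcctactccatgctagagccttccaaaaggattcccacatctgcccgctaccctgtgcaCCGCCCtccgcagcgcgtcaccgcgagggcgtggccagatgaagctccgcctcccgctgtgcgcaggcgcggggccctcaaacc
Dgkq: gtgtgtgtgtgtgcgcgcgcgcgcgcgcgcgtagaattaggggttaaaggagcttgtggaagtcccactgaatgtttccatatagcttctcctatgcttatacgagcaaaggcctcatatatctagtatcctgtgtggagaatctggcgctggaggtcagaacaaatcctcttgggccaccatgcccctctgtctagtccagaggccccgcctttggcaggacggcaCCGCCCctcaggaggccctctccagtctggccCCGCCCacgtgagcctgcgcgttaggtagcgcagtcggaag
Ap3d1: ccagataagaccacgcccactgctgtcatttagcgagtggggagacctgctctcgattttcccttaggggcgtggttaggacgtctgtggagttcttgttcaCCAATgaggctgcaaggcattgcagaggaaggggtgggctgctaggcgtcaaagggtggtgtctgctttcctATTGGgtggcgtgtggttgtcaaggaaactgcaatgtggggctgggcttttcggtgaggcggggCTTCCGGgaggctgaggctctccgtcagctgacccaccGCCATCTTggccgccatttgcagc
They come from chr10:128565885-128566184 (minus strand), chr12:44268904-44269203 (plus), chr1:136415021-136415320 (plus), chr5:108660781-108661080 (minus) and chr10:80742226-80742525 (minus), in this order. The first 4 each hold 2 GC boxes. The promoter of Ap3d1 holds no GC box but 2 CCAAT boxes, 1 ETS site and 1 YY1 site. GC content was 68.0% at Pa2g4 with 29 CpG, 59.0% at Pnpla8 with 16, 57.3% at Ddx59 with 18, 58.7% at Dgkq with 20 and 58.7% at Ap3d1 with 13. The regions covered 213, 210, 193, 142 and 129 of these 300 bases.

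The members were small and shallow. Each held 1 interval of the shUbe2t #2 list, and 147 of the 433 had a width of 200 bp. Their median width was 229 bp (200 to 631). The deposited fold, the summit's fragments over the local background after 1 is added to both, had a median of 4.61, quartiles of 4.14 and 5.26 and a range of 2.38 to 7.96. Summits held 8 to 32 fragments, with a median of 13, over local backgrounds of 1.23 to 9.92. These values chose the members, since an interval was listed only where its p passed, and they are given as a description. In a bulk library a signal held by few cells cannot be told apart from a weak one in all of them.

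Regions of the shUbe2t #2 list that other libraries shared were wider, as merging intervals of several lists can make them. The median width was 382 bp for the 178 gene-end regions of both hairpins without shCtrl, and 483 bp for the 125 of all 3 S9.6 libraries. Within the shUbe2t #2 list the median fold was 4.64 in the former and 5.06 in the latter, with medians of 14 and 17 fragments. A deposited −log10 q of at least 5 was reached by 103 members (23.8%, exact 95% binomial interval 19.9 to 28.1), by 32.0% of the regions of both hairpins and by 60.0% (50.9 to 68.7) of those of all 3 libraries. All intervals printed cover counting error only. The 239 regions of shUbe2t #2 alone away from gene ends had a median fold of 4.58 and a median of 13 fragments.

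**Figure D1:**
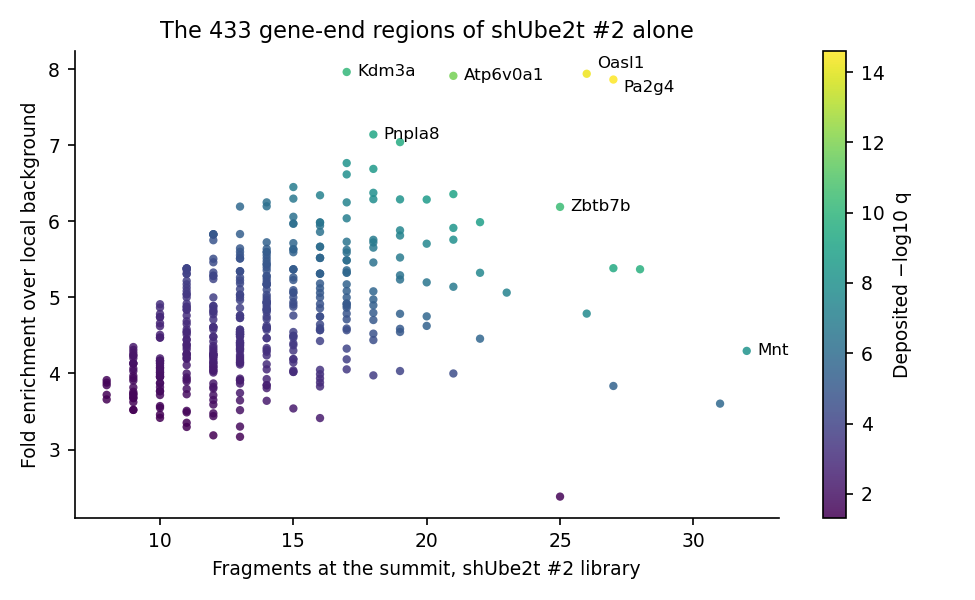
Each point is 1 of the 433 members, with the fragments at its summit in the shUbe2t #2 library on the x axis, the deposited fold over local background on the y axis and the deposited −log10 q as colour. Most points sit near the medians of 13 fragments and 4.61, and 4 regions (Kdm3a, Oasl1, Atp6v0a1 and Pa2g4) lie close to 8-fold, apart from the rest.

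The highest folds belonged to genes of unlike function. Kdm3a, a histone H3 lysine 9 demethylase, had the highest (chr6:71633362-71633606), with 17 fragments, fold 7.96 and −log10 q 10.1, in a region that ended 372 bp short of the gene's start. Oasl1, a 2′-5′-oligoadenylate synthetase-like protein of the interferon response, followed with 26 fragments and fold 7.94 (chr5:114922418-114922625). That region lay 518 bp from Oasl1 and nearer, 157 bp, to the predicted gene Gm13822. Atp6v0a1, a subunit of the vacuolar proton pump, had 21 fragments and fold 7.91 (chr11:101009314-101009660). Pa2g4, a growth-regulating protein that binds ErbB3, had 27 fragments, fold 7.87 and the highest −log10 q of the members, 14.6 (chr10:128565972-128566464). After these 4 came a gap to 7.14 at Pnpla8, a phospholipase (18 fragments, chr12:44268992-44269201), and 7.04 at Ddx59, a DEAD-box RNA helicase (19 fragments, chr1:136415128-136415338). None of these regions held an interval in shCtrl, in shUbe2t #1 or without antibody, which is the rule and not a result.

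The next members by fold ran from 6.77 to 5.99 without a gap. Among them were Dgkq, a diacylglycerol kinase whose region is shared with Idua, a lysosomal enzyme (fold 6.77, 17 fragments, chr5:108660689-108660922), and Ap3d1, a subunit of the AP-3 coat (6.69, 18 fragments, chr10:80742397-80742596). Cytoskeleton and division genes were Myh9, a non-muscle myosin heavy chain (6.36, 21 fragments), Prc1, which bundles the microtubules of the spindle midzone (6.34, 16 fragments), and Ncapg2, a condensin II subunit (6.04, 17 fragments). Genes of transcription were Med26, a Mediator subunit (6.29, 19 fragments), Klf7, a Krüppel-like factor (6.29, 20 fragments), Zbtb7b, a zinc finger repressor (6.19, 25 fragments), and Smarca5, the ATPase of ISWI remodellers (6.25, 17 fragments). The Klf7 region lay 441 bp from Klf7 and overlapped an end of the predicted gene Gm35880. Signalling and metabolism were represented by Map2k1, the kinase MEK1 (6.19, 13 fragments), and Pdk1, which phosphorylates pyruvate dehydrogenase (6.06, 15 fragments).

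The remaining genes of the 25 highest folds were Bbs10, a chaperonin-like protein of the Bardet-Biedl group (6.45, 15 fragments), Serpini1, a neuronal serpin that shares its region with Pdcd10 (6.38, 18 fragments), Adgrf2, an adhesion receptor (6.30, 15 fragments), and Nfkbil1 (6.29, 18 fragments). Golph3l with Hormad1 and the predicted gene Gm40097 (6.25, 14 fragments), Xrn2 (6.20, 14 fragments), Ddx42 with Ccdc47 (5.99, 22 fragments) and Mterf3 with Ptdss1 (5.99, 16 fragments) complete them. The 2 highest members near predicted genes alone were at Gm32267 (6.62, 17 fragments) and Gm8273 (5.56, 14 fragments). For a single summit the counting error is large: the exact Poisson interval of the 17 fragments at Kdm3a is 9.90 to 27.2, and that of the 27 at Pa2g4 is 17.8 to 39.3.

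At the other end, the weakest calls by q were at Dynlt1b, a dynein light chain, and Zfand6, each with 9 fragments, fold 3.52 and −log10 q 1.32, and at Gm13169 with 8 fragments and fold 3.66. The widest member, 631 bp over the shared start of Atm and Npat (chr9:53536694-53537324), was not a strong one, with 11 fragments and fold 4.35. Gm10354 (592 bp), Atf2 (496 bp), Pa2g4 (493 bp) and Hbp1 (486 bp) were the next widest. The most fragments, 32, lay 362 bp from Mnt, a MAX-binding repressor, over a background of 6.68, so that its fold was 4.30. Mnt is named here after its value was seen.

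The rule takes either end of a gene, and nearly all members lay at the start. Of 363 members with a gene of known strand in reach, 355 were within 1000 bp of a start (97.8%, 95.7 to 99.0) and 8 reached a far end only. The share was 96.1% for the 364 regions of shUbe2t #1 alone, 98.0% for both hairpins without shCtrl, 96.5% for the 156 of shCtrl alone and 94.9% for all 3 libraries. Of the no-antibody library's own gene-end intervals, 29 of 40 with a strand were at a start (72.5%, 56.1 to 85.4).

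Summits centred just before the start. Measured from the nearest start in the promoter table, the median position of the 355 was −74 bp, with quartiles of −176.5 and 21.5 bp, and 320 (90.1%, 86.6 to 93.0) lay within 500 bp. The range was −178797 bp, at Iqsec1, to 1044 bp, at Jund, since the start listed there can differ from the annotated gene end that made a region a member. Summits past the start, in the transcribed part, numbered 105 (29.6%, 24.9 to 34.6). The regions of shUbe2t #1 alone gave −60 bp, 91.1% and 30.4%, over 293 regions, and those of shCtrl alone −58 bp, 83.8% and 36.9%, over 111. Regions of all 3 libraries had their median at −97.5 bp, with 23.4% past the start. Among the named genes the summit lay 42 bp before the start at Pnpla8, 35 bp before it at Ddx59 and 4 bp before it at Serpini1, and 29 bp past it at Dgkq, 21 bp at Ddx42 and 536 bp at Xrn2.

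**Figure D2:**
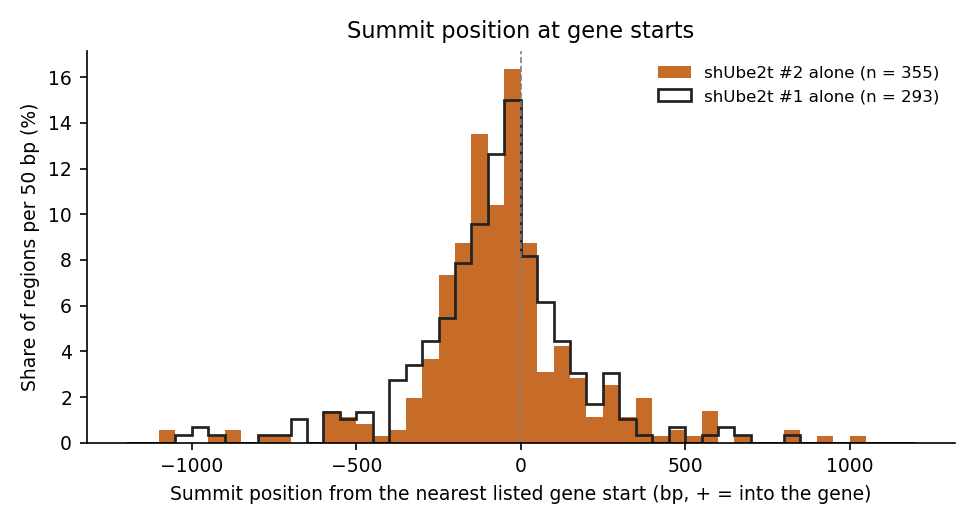
The x axis is the distance of the summit from the nearest listed gene start in bp, positive into the gene, and the y axis the share of regions per 50 bp, for 355 members (filled) and 293 gene-end regions of shUbe2t #1 alone (line). The few summits beyond the ends of the axis are not drawn. Both distributions peak just before the start, with medians of −74 and −60 bp.

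Many promoters of the members were of the CpG island kind. Over the 389 protein-coding genes with a listed promoter and their start in reach, the median GC content of the 300 bases was 62.3% (quartiles 56.8 and 67.7), against 56.3% (48.2 and 64.0) over all 17492 protein-coding genes in the table. The ratio of observed to expected CpG had a median of 0.779 against 0.564, and it was 0.6 or more at 79.4% (75.1 to 83.3) of the members' genes against 47.2% of all. The 50 bases past the start held more G than C at 69.9% (65.1 to 74.4), against 59.6% of all. The rule did not use the sequence.

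The promoters of the other S9.6 classes were GC-rich too. The median GC content was 63.7% for shUbe2t #1 alone, 65.3% for both hairpins, 61.7% for shCtrl alone and 65.0% for all 3 libraries. A CpG ratio of 0.6 or more was found at 78.8%, 85.0%, 76.3% and 81.3% of their genes, and more G than C past the start at 69.3%, 70.6%, 70.2% and 65.4%. Gene-end intervals of the no-antibody library, over 23 genes, gave a median GC content of 62.0% and more G than C at 69.6% (47.1 to 86.8), close to the members, and a CpG ratio of 0.6 or more at 43.5% (23.2 to 65.5). The part of base composition in the calls was not tested.

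**Figure D3:**
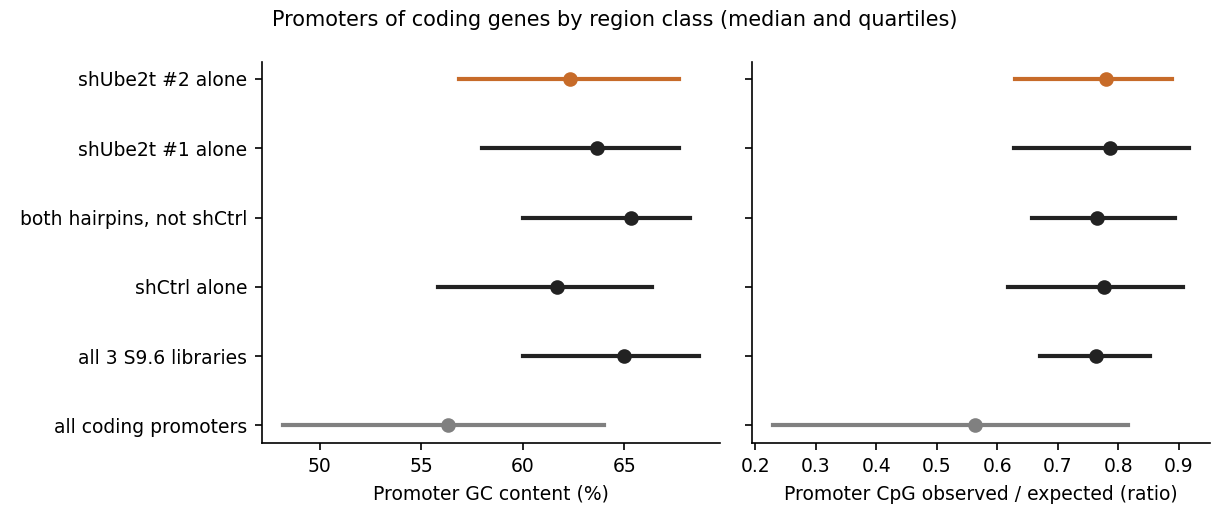
Points are medians and lines quartiles of the GC content in percent (left) and of the observed over expected CpG ratio (right) of the 300-base promoters of protein-coding genes, for 5 classes of gene-end regions and for all coding promoters. The 389 genes of shUbe2t #2 alone (orange) have medians of 62.3% and 0.779, close to the other classes and above the 56.3% and 0.564 of all promoters.

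Short promoter motifs were searched on both strands of the 300 bases. GGGCGG was found at 78.1% (73.7 to 82.2) of the members' genes against 49.2% of all, CCAAT at 52.7% (47.6 to 57.8) against 42.3%, and CCGGAAG at 20.6% (16.7 to 24.9) against 12.9%. CTCGCGAG, the core bound by ZBTB33, was found at 4.11% (2.37 to 6.59) against 1.41%. TATAAA was rarer, at 5.14% (3.17 to 7.83) against 14.8%. The shares of the NRF1 core GCATGCGC (4.63% against 3.94%), the CRE TGACGTCA (3.08% against 2.54%) and the YY1 site AAGATGGC (4.63% against 3.57%) lay closer to those of all promoters. In shUbe2t #1 alone, GGGCGG was found at 75.9%, CCAAT at 57.0%, CCGGAAG at 18.7%, CTCGCGAG at 2.22% (0.895 to 4.51) and TATAAA at 8.23%. In shCtrl alone, CCGGAAG was found at 21.1%, CTCGCGAG at 0.877% (0.0222 to 4.79) and TATAAA at 6.14%. A match is a run of letters and not a bound site.

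Since the members are defined by the absence of a call in the other libraries, the distance from such a call describes them. Depth, taken as the lowest local background of each library, was 107% of that of shUbe2t #2 in shCtrl, 98.6% in shUbe2t #1 and 62.7% without antibody. For each member the fragments that the other library would have needed were computed at the same background scaled for depth, from the lowest −log10 p of that library's list. A peak list gives no value where nothing was called, so the level of shCtrl and shUbe2t #1 at the members is unknown.

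Scaled for depth, the median member stood at 1.36 times the smallest callable summit of shCtrl (0.95 to 2.53) and at 1.31 times that of shUbe2t #1 (0.986 to 2.42). Only 84 members (19.4%, 15.8 to 23.4) exceeded 1.5 times in both. At 14 members the scaled summit would not have been called in shCtrl, and at 37 not in shUbe2t #1. When the lower bound of the exact Poisson interval of the summit is set against the same mark, 30 members reached it in both libraries. The summits are the values that chose the members. The bound makes no allowance for that or for the number of summits, so the 30 are a description. They include Kdm3a (17 fragments, 8 needed in each), Oasl1 (26, 11 needed in each), Atp6v0a1 (21, with 10 and 9 needed) and Pa2g4 (27, with 12 and 11 needed). They also include Polr2a, the largest subunit of RNA polymerase II (19 fragments, 11 needed in each), and Mnt. The no-antibody library was shallower still: 194 of the 433 summits (44.8%) would have reached its mark after scaling and 239 would not.

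**Figure D4:**
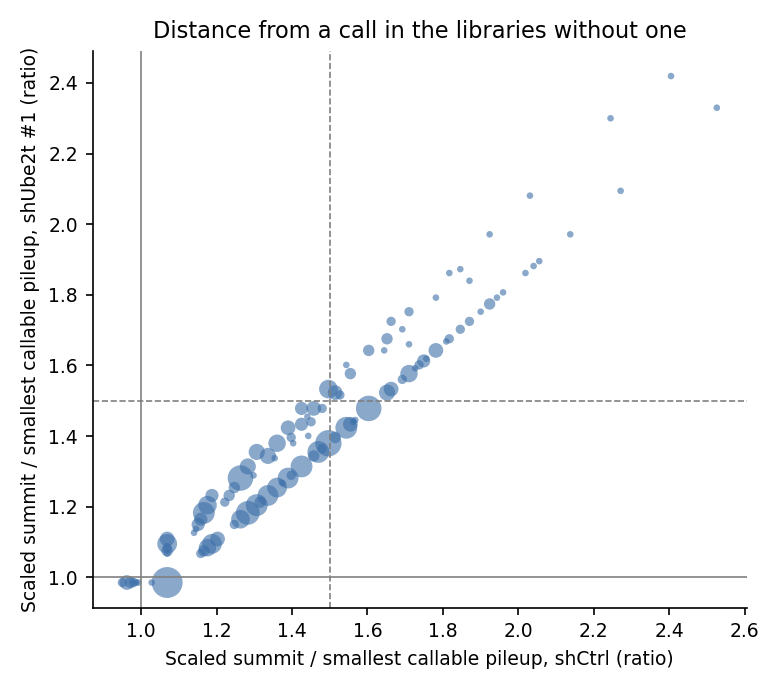
Both axes are the member's summit, scaled for depth, divided by the smallest summit that the library without a call would have listed at that background: shCtrl on the x axis and shUbe2t #1 on the y axis. The area of a point grows with the number of members at it, solid lines mark 1 and dashed lines 1.5, and 84 of the 433 members lie above both dashed lines.

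Some members had a call of another library close by. An interval of shCtrl lay within 1 kb of 9 members and within 10 kb of 15, and one of shUbe2t #1 within 1 kb of 21 and within 10 kb of 28. Either lay within 10 kb of 35 members (8.08%, 5.69 to 11.1), and the median distance to the nearest was 287 kb. At Serpini1 a shCtrl interval lay 13 bp away and a shUbe2t #1 interval 186 bp away. At the region of Smc6, an SMC-family protein of repair, and Gen1, a Holliday junction nuclease, a shUbe2t #1 interval lay 23 bp away. At Psme2 and Rnf31 one lay 70 bp away, and at Iqsec1 intervals of shCtrl and shUbe2t #1 lay 129 and 71 bp away. A shUbe2t #1 interval also lay 214 bp from the member at Egr1, 218 bp at Fbxo5, 274 bp at Ddx42 and 336 bp at Kat7. These promoters held calls in more than 1 library that did not touch, and they are members through the merging at 0 bp.

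Of the 475 protein-coding genes with a member at an end, 17 held a shCtrl interval elsewhere in the gene or within 1000 bp of it, 31 held one of shUbe2t #1, and 4 one of the no-antibody library. An interval of shCtrl or shUbe2t #1 was present at 40 of them, and at 8 both were. The 475 genes are 2.17% of the 21887 placed protein-coding genes. That share serves below as the background for each gene group, although genes of non-coding RNA are not part of it. In comparison, 1.82% of coding genes had a gene-end region of shUbe2t #1 alone, 0.631% one of shCtrl alone, 0.941% one of both hairpins and 0.653% one of all 3 libraries. Genes with a promoter CpG ratio of 0.6 or more had a member in 3.80% of 8253 cases (3.40 to 4.24), those with a lower ratio in 0.974% of 9239. Members' coding genes had a median length of 29.2 kb, against 17.2 kb over all coding genes and 27.0 kb for coding genes of the other gene-end regions.

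Genes of DNA damage signalling and DNA repair had a member at 8 of 65 (12.3%, 5.47 to 22.8). In this group 6 of the 40 genes with a CpG ratio of 0.6 or more were among them. Sensors and kinases among them were Atm, the kinase that responds to breaks (11 fragments, fold 4.35), Chek2, its effector kinase (11 fragments, 4.88), and Prkdc, the catalytic subunit of DNA-PK (14 fragments, 5.51). Enzymes of repair were Apex1, the abasic site nuclease (13 fragments, 5.34), Ogg1, the 8-oxoguanine glycosylase (19 fragments, 4.59), and Gen1 (10 fragments, 4.47). Shld3, a shieldin subunit, had 9 fragments and fold 3.73. Rad51d had 2 members with 13 fragments each, at folds 4.96 (chr11:82871165-82871369) and 4.12 (chr11:82890488-82890752). The first of these overlapped an end of Rffl and lay 591 bp from Rad51d. Another coding gene also shared the region at Atm (Npat), Chek2 (Hscb), Prkdc (Mcm4), Apex1 (Osgep) and Gen1 (Smc6). Which gene the signal belongs to cannot be told apart there. The same list had 1 gene at regions of shUbe2t #1 alone, 2 at those of both hairpins, 2 at those of shCtrl alone and 1 at those of all 3 libraries. Over all coding genes these classes reached 1.82%, 0.941%, 0.631% and 0.653%, in this order, against 2.17% for the members. The counts therefore cannot be set against the 8 directly. Gene-end regions of any class, the members among them, reached 14 of the 65, and 1411 of the 21887 coding genes. A higher share than over all coding genes was therefore not particular to the members.

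Chromatin regulators had a member at 12 of 113 (10.6%, 5.61 to 17.8). The list had 2 genes in shUbe2t #1 alone, 3 in both hairpins, 1 in shCtrl alone and 1 in all 3 libraries. These classes reached 1.82%, 0.941%, 0.631% and 0.653% of all coding genes, against 2.17% for the members. Gene-end regions of any class, the members among them, reached 21 of the 113. Of its 78 genes with a CpG ratio of 0.6 or more, 9 had a member. Histone demethylases were Kdm3a, Kdm3b (17 fragments, 4.71) and Kdm4a (13 fragments, 4.52). Methyltransferases and relatives were Kmt2a, the MLL1 enzyme (16 fragments, 5.18), Kmt5c (13 fragments, 4.14) and Setd5 (15 fragments, 3.54). Remodellers were Smarca5, Srcap (16 fragments, 5.31) and Chd9 (16 fragments, 5.31). The remaining 3 were Ctcf, the insulator protein (15 fragments, 5.23), Tet1, which oxidises 5-methylcytosine (12 fragments, 4.09), and Kat7, an acetyltransferase (14 fragments, 4.05).

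Genes that act on the ends of transcripts had a member at 3 of 26 (11.5%, 2.45 to 30.2). No gene of that list was at regions of the 4 other classes named above, and 4 of its genes lay at gene-end regions of any class. Those other classes reached 0.631% to 1.82% of all coding genes, so a count of 0 among 26 genes says little. All 3 are among the 23 genes of the list with a CpG ratio of 0.6 or more, and the 3.80% of all such genes lies inside this interval. They were Xrn2, the exonuclease of termination (14 fragments, 6.20), Nudt21, a cleavage factor subunit (14 fragments, 5.21), and Papolg, a poly(A) polymerase (14 fragments, 4.34). Of the polymerase subunits 2 of 28 (7.14%) had one, Polr2a (19 fragments, 5.88) and Polr3g of RNA polymerase III (13 fragments, 4.38). Mediator and TFIID-type factors gave 2 of 53, Med26 and Taf6l (15 fragments, 5.06), and Integrator 1 of 14, Ints6 (13 fragments, 4.86). With so few genes a list, these intervals are wide, and those of the last 3 lists reach below 2.17%.

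Genes in the pathway of the targeted enzyme and factors that process R-loops had members in small numbers. Their shares lay above 2.17%, with wide intervals. Fanconi anaemia and crosslink repair genes gave 2 of 30 (6.67%, 0.818 to 22.1): Fancl, the E3 ligase that works with UBE2T (15 fragments, fold 5.00), and Rfwd3, another E3 ligase (12 fragments, 3.80). R-loop factors gave 2 of 39 (5.13%, 0.627 to 17.3), Xrn2 and Pcid2, a subunit of the TREX-2 complex (13 fragments, 4.32). Replication genes gave 2 of 57 (3.51%), Pole4 (15 fragments, 5.63) and Mcm4, a subunit of the replicative helicase, whose region is the one it shares with Prkdc (chr16:15637772-15637976). Each of these 3 shares has 2.17% inside its interval. Ube2t itself (chr1:134962565-134974180) held no interval in any library. The nearest lay 226 kb away in each S9.6 list and 256 kb away without antibody. Peak lists of DNA do not measure its transcript, so that the knockdown was not checked.

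Other ubiquitin genes were near the background, with Ube2u among 37 E2 enzymes (2.70%), Rnf31 and Rnf122 among 80 RING finger genes (2.50%), Usp46 among 50 Usp genes (2.00%), Fbxo5 among 78 F-box genes (1.28%) and Psme2 and Psmd12 among 50 proteasome genes (4%). RNA genes gave 3 of 53 DEAD and DEAH helicases (5.66%; Ddx59, Ddx42 and Dhx8) and 5 of 123 splicing factors (4.07%). Immediate early and p53 targets gave 3 of 39 (7.69%, 1.62 to 20.9). Among them Egr1, a growth-induced transcription factor, had 28 fragments and fold 5.37, Gadd45a 16 and 5.06, and Jund 15 and 4.02. A shUbe2t #1 interval lay 214 bp from the Egr1 region. Zinc finger genes gave 15 of 462 (3.25%, 1.83 to 5.30), from Zbtb7b at 6.19 to Zfp687 at 3.83. Of those with a known strand, Zfp174 was reached at its far end and the others at their start.

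The remaining lists also gave small counts, with shares on both sides of 2.17%. Mitochondrial ribosomal proteins gave 4 of 75 (5.33%), Rab genes 4 of 69 (5.80%, with Rab11fip5, an effector and not a GTPase, counted by its name), centromere and kinesin genes 3 of 65 (4.62%) and cyclins and Cdks 2 of 43 (4.65%; Cdk7 and Cdk16). There was 1 of 37 genes put under complex I by name (Ndufa4), 1 of 56 initiation factors (Eif1) and 1 of 32 pluripotency genes (Klf2, 10 fragments, 3.42). Housekeeping and highly transcribed genes gave 1 of 42 (Pkm, 12 fragments, 3.65), against 3 at regions of all 3 libraries. Genes named as solute carriers gave 5 of 375 (1.33%, 0.434 to 3.08), with Slc9a3r1 counted by its name only. Of 1463 olfactory and vomeronasal receptors 1 had a member (0.0684%), Olfr1382, at its far end. No member lay at the 83 cytosolic ribosomal protein genes, the 64 replication-dependent histones or the 53 keratins. The limit that a count of 0 allows, taken as 3 counts of the total, is 3.61%, 4.69% and 5.66% there, and the exact upper bounds are 4.35%, 5.60% and 6.72%.

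**Figure D5:**
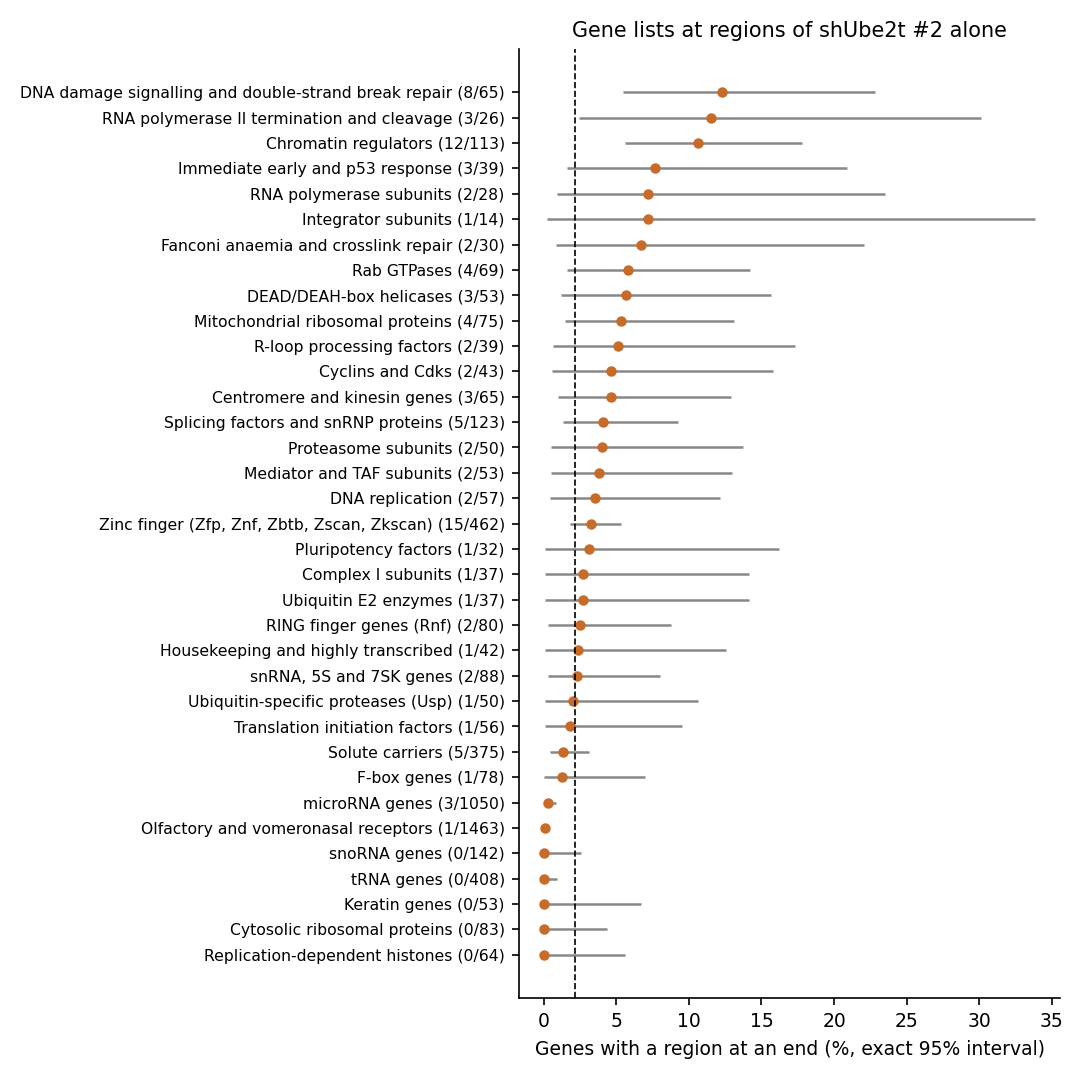
Points are the share of the genes of each list with a member within 1000 bp of an end, in percent, with exact 95% binomial intervals as lines, counts in brackets and the share of all coding genes, 2.17%, as a dashed line. The intervals of DNA damage signalling (8 of 65), termination (3 of 26) and chromatin regulators (12 of 113) lie above the dashed line, although that of termination holds the 3.80% of genes with a CpG ratio of 0.6 or more. Those of microRNA genes, tRNA genes and olfactory and vomeronasal receptors lie below it, and those of the other lists reach it. MicroRNA and tRNA genes are not coding, so the line is not a share of their own type.

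The genes of a region were often paired. Members reached 594 gene ends of 589 genes, and 223 of them overlapped an end. A second gene end was in reach at 144 (33.3%, 28.8 to 37.9), 2 protein-coding genes at 72 (16.6%, 13.2 to 20.5), and starts of opposite strands at 97 of the 363 with strand (26.7%, 22.2 to 31.6). Divergent starts made up 23.9% in shUbe2t #1 alone, 26.4% in both hairpins, 18.3% in shCtrl alone and 26.3% in all 3 libraries. The 5 pairs with the highest folds were Dgkq and Idua, Serpini1 and Pdcd10, Prc1 and Rccd1, Golph3l and Hormad1, and Ddx42 and Ccdc47. Which gene of a pair the signal belongs to cannot be told apart, since the lists carry no strand.

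A protein-coding end was in reach at 405 members (93.5%, 90.8 to 95.7). The share was 93.1% in shUbe2t #1 alone, 93.3% in both hairpins and 93.6% in all 3 libraries. It was 75% (67.4 to 81.6) in shCtrl alone and 47.1% at gene-end intervals of the no-antibody library. Of the 28 members with no coding end, 18 had a long non-coding RNA in reach and 10 a small RNA. These counts overlap at Rnu3b1, and Gm4978, a pseudogene, was alone at its member. Over all members, 87 of 12727 placed long non-coding RNA genes (0.684%) and 3 of 9944 pseudogenes had a member.

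Small RNA genes were few. Among the snRNA genes were Rnu7, the U7 RNA of histone end processing (22 fragments, fold 4.46), Rnu3b1 (15 fragments, 4.30) and Rnu2-10 (17 fragments, 5.33). The microRNA genes were Mir8116 (19 fragments, 5.52), Mir7653 (23 fragments, 5.06) and Mir92b (17 fragments, 4.33), 3 of 1050. On chromosome 7, between 59726682 and 59771762, 3 members lay at ends of snoRNA genes: Gm23265 (9 fragments, 4.31), Gm24760 (10 fragments, 4.87) and LOC115486763 (31 fragments, 3.60). Other libraries had calls nearby: shUbe2t #1 at 404 bp and shCtrl at 6212 bp from the first member. From the second they lay 11852 and 16783 bp away. These genes have near-identical copies, and how reads that fit several of them were placed is given in no source used here, so the positions are uncertain. By annotated type, 11 of 1004 placed snRNA genes (1.10%) and 9 of 1340 snoRNA genes (0.672%) had a member. The lists by name are smaller and leave out Rnu2-10 and the predicted genes. They gave 2 of 88 snRNA, 5S and 7SK genes (2.27%) and 0 of 142 snoRNA genes, where 3 counts of the total are 2.11% and the exact upper bound is 2.56%. No member lay at the 408 tRNA genes (3 counts 0.735%, exact upper bound 0.900%).

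Members were spread over the genome, with 29 neighbouring pairs within 100 kb and 2 within 10 kb. Chromosome 11, rich in genes, held the most: 59 members, at 58 of its 1609 coding genes (3.60%, 2.75 to 4.64), against 2.80% there for shUbe2t #1 alone. The median local background of its members was 2.64, against 2.06 over all members. The X chromosome held 8 members at 9 of 966 coding genes (0.932%, 0.427 to 1.76), with 2 genes for shUbe2t #1 alone and 0 for shCtrl alone, and the background there was 1.26. On chromosome 17 members reached 23 of 1059 coding genes (2.17%, 1.38 to 3.24) and regions of shUbe2t #1 alone 6 (0.567%, 0.208 to 1.23). Regions of both hairpins without shCtrl reached 15 there (1.42%, 0.795 to 2.33), against 0.941% over all coding genes. Chromosome 17 is named here after its values were seen. No member was on chromosome Y, which has 256 coding genes in the table.

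The 1000 bp limit of the rule cuts through few regions. Just inside it lay the members at Nadk, an NAD kinase, 989 bp from the end (17 fragments, fold 5.00), and at Mettl17, 985 bp from it (10 fragments, 4.74). Just outside lay regions 1004 bp from Gm6249 (9 fragments, 3.57) and 1035 bp from Trim41 (22 fragments, 4.31). A further 2 gene-end regions of shUbe2t #2 alone were left out for an overlap with the no-antibody library.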

How the data were processed

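CUT&Tag was measured in 4 libraries, amplified for 11 PCR cycles per the labels' protocols. The submitters' processing notes name MACS2 2.1.2, Bowtie (version 0.7.12 there), Trimmomatic and the mm10 build. The order of steps, the treatment of duplicates, the q threshold and any control used in calling were not given in the sources used here. The authors deposited 1 peak list per library, with a fold (a ratio of summit over local background), −log10 p and −log10 q per summit, and a score that follows the −log10 q and was not analysed. Peak names of the no-antibody list begin with IgG, and "no antibody" follows the label.

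Fold and −log10 p were solved for the summit's whole number of fragments and its background (Poisson tail, 1 added to both), which worked for at least 99.0% of the intervals of each list and for all 433 members, and was tested on simulated data. The 1263, 1519, 1640 and 516 intervals of shCtrl, shUbe2t #1, shUbe2t #2 and no antibody had lowest backgrounds of 1.31, 1.21, 1.23 and 0.772, the measure of depth. The number of fragments per library is unknown. Intervals were merged at 0 bp, overlap counted from 1 bp, and coordinates count from 1 on mm10.

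Genes came from RefSeq (GRCm38.p6, the build of mm10; 49943 placed genes). Starts and strand came from the promoter table, which holds 27025 of them and 404 of the members' 475 coding genes. No exons were used, so exons and introns were not told apart. Python 3.11.15 with pandas 2.3.3, NumPy 2.4.6 and SciPy 1.17.1 was used.

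The members and the gene lists (447 names on 9 curated lists, and 26 families by name pattern) were chosen with earlier results of these data known, and the counts are not independent evidence. Genes named are the 25 members of highest fold near a gene that is not a predicted one (Gm, Rik, LOC and the like, which came after all others in giving a region its gene), the 2 highest near predicted genes, the 5 highest pairs, the 5 widest, the 3 weakest, 2 on each side of the distance limit, list genes and Ube2t. Names beside neighbouring calls, small RNAs and Mnt were chosen after their values were seen. Not every list gene is reported here by name. Intervals on shares are exact (Clopper-Pearson, 95%). Genes that share a region are not independent. Alternatives were a −log10 q of at least 5, lists of equal size, merging over 500 bp, gene ends within 500 or 2000 bp, a 1000 bp margin around no-antibody intervals, and coding genes only.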

Additional observations from a re-analysis of the deposited data

How the results depend on the processing

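Of 70 values recomputed, for 10 results under 7 alternatives, 56 stayed within the interval of the value as reported (for the number of members, within 1.5 times) and 14 did not. With a −log10 q of at least 5 in every list there were 171 members, 103 of them among the 433. Their median fold was 5.52, with 17 fragments and a width of 259 bp. A protein-coding end was in reach at 90.6%, and another library's interval lay within 10 kb of 4.68%. The share above 1.5 times the smallest callable summit was 80.7%, but that mark was kept from the full lists. It was not raised with the q limit, so the rise from 19.4% follows from the filter. The calls needed for membership are then stronger, and intervals of the other libraries below that q no longer count against a region. With the 1263 strongest intervals of each list there were 307 members, 292 of them among the 433, with a median fold of 5.00. Of these, 28.7% exceeded 1.5 times the same unchanged mark. Merging over 500 bp gave 406 members and left 2.46% within 10 kb of another library's interval. Gene ends within 2000 bp gave 480 members, a second gene end at 37.9% and a start at 95.3%. With coding genes only, 405 members were left, by construction 100% with a coding end, and 17.8% had a second coding end. Gene ends within 500 bp gave 398 members, and the no-antibody margin changed none. No paired analysis was possible because there was 1 library per condition, and no replicate could be left out. Depth limits all of this: the median summit held 13 fragments. With no allowance for selection, only 30 members had a lower counting bound that reached the mark of both other S9.6 libraries.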
